A study of Mus musculus with 96 samples.

Results

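A set of 10 genes of Toll-like receptor signalling and of the inflammasome were followed across 4 cell types of the mouse heart after myocardial infarction. They were chosen by name: the receptors Tlr2 and Tlr4, the co-receptor Cd14, the adaptor Myd88, the inflammasome genes Nlrp3, Pycard, Casp1, Casp4 and Gsdmd, and Nfkbia, the gene of the NF-kB inhibitor IkBa. All 10 were found among the 50944 genes listed in every file. Total RNA was sequenced from hematopoietic cells (HC), fibroblasts (FB), endothelial cells (EC) and cardiomyocytes (CM), collected 1, 3, 7, 14 and 28 days (Day 1 to Day 28) after the left anterior descending coronary artery was tied off for good, and from unoperated hearts (Day 0). Every group came from male C57Bl/6J mice that were 12 to 14 weeks old at the time of infarction. There were 96 libraries, 4 in each of the 24 groups, and n = 4 for every group value below, except in fits that leave libraries out. A library was made from RNA pooled over 3 mice, or over 2 where a sample was missing, and the study calls the pools both biological and technical replicates, so p-values measure the spread between pools. No sham operation was among the groups analysed, so infarction and surgery cannot be told apart. CM were enriched by low-speed centrifugation, HC with anti-CD45 beads, EC with anti-CD144 beads, and FB by adhesion to uncoated dishes. An isolate can hold other cell types, and in bulk RNA fewer cells of a type and less RNA per cell cannot be told apart.

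Toll-like receptors are membrane proteins that recognise microbial products and molecules released by damaged cells. TLR2 and TLR4 signal through the adaptor MyD88 to the transcription factor NF-kB, and CD14 hands lipopolysaccharide to TLR4. The inflammasome is a cytosolic complex in which a sensor such as NLRP3 recruits the adaptor ASC (encoded by Pycard) and activates caspase-1, which cleaves pro-interleukin-1 beta and gasdermin D. Gasdermin D (Gsdmd) forms pores in the membrane, and caspase-11 (encoded by Casp4 in the mouse) cleaves it after sensing intracellular lipopolysaccharide. Nfkbia is itself an NF-kB target, so its transcript is widely used as a readout of NF-kB activity.

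Libraries held 13503024 to 55758471 estimated reads in CM, 12445124 to 33868990 in EC, 2664338 to 36545715 in FB and 16214419 to 40395291 in HC. Ribosomal RNA made up 53.4% to 68.2% of the reads in CM and 2.83% to 35.6% elsewhere. Levels are given as CPM, the estimated reads of a gene relative to the total of its library after TMM scaling within a cell type, unless a joint scaling over all 96 libraries is named. The 4 markers of HC used by the study (Itgax, Itgal, Cd53 and Ptprc) were all detected in HC libraries, where their sum averaged 978 CPM at Day 0. In CM their sum averaged 0.345 CPM at Day 0, with Itgax at 0 in all 4 libraries. In all, 8 libraries stood apart from the rest of their cell type. In HC these were replicates 2 and 4 of Day 28. In FB they were replicates 2 and 3 of Day 3 and replicate 4 of Day 28. The 2 of FB Day 3 held 2664338 and 3508819 estimated reads, and ribosomal RNA made up 35.6% and 35.2% of these. In EC they were replicates 1 and 2 of Day 0 and replicate 3 of Day 28. In the 3 EC libraries, non-coding genes that lie opposite an abundant gene summed to 3424 to 3708 CPM, against 800 to 1140 CPM in the other 21. The sum was 1786 to 2513 CPM in the 3 FB libraries, against 742 to 1051 CPM in the other 21, and 3171 to 3704 CPM in the 2 HC libraries, against 751 to 1226 CPM in the other 22. The study left out 2 FB Day 3 and 1 HC Day 28 total RNA libraries as outliers by principal component analysis and did not name them. The main fits here keep all libraries. Member calls that were lost or gained without the 8 libraries that stood apart are given with and without them. The fits without them keep only replicates 3 and 4 of EC Day 0, 1 and 4 of FB Day 3 and 1 and 3 of HC Day 28. They also lack 1 library each of EC Day 28 and FB Day 28. A call can thus be lost with fewer libraries as well as with a smaller change.

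Across cell types the members fell into distinct patterns of abundance, described first on the joint CPM scale. Nlrp3 was close to specific to the HC isolate, with a median of 49.5 CPM over the 24 HC libraries (15.5 to 300 CPM), against medians of 0.191 CPM in FB, 0.186 CPM in CM and 0.172 CPM in EC. Cd14 had a median of 157 CPM in HC (82.0 to 423 CPM), against 1.66 CPM in CM, 1.41 CPM in FB and 1.01 CPM in EC. Neither gene overlapped between HC and any other cell type, while the 3 other cell types overlapped one another for both. Tlr2 followed the order HC, FB, EC and CM, with medians of 88.8, 12.1, 3.98 and 1.92 CPM, and only the EC and CM ranges met (1.71 to 5.54 CPM in EC and 0.507 to 3.62 CPM in CM).

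The remaining members were less restricted. Tlr4 had medians of 69.5 CPM in HC, 42.3 CPM in FB, 30.7 CPM in CM and 28.6 CPM in EC, and all 4 ranges overlapped. Myd88 was of like abundance in FB (34.4 CPM) and HC (28.4 CPM), above EC (11.5 CPM) and CM (6.06 CPM). Casp4 stood highest in FB, with a median of 35.2 CPM (4.45 to 57.8 CPM), followed by HC (19.4 CPM), EC (13.4 CPM) and CM (2.54 CPM). At Day 0 the FB level of Casp4 was 51.9 ± 6.01 CPM (SD), against 16.8 ± 2.26 CPM in HC, and the libraries of the 2 cell types did not overlap. Nfkbia had medians of 399 CPM in HC, 335 CPM in FB, 145 CPM in EC and 38.4 CPM in CM. Gsdmd had medians of 17.1 CPM in HC, 9.23 CPM in FB, 8.18 CPM in EC and 1.83 CPM in CM. Pycard had medians of 28.7 CPM in HC, 8.38 CPM in CM, 3.33 CPM in FB and 2.03 CPM in EC. Casp1 had medians of 25.6 CPM in HC, 3.79 CPM in EC, 1.51 CPM in FB and 1.14 CPM in CM, with a limit set by the files: in CM, EC and the Day 1 and Day 7 HC libraries only 1 Casp1 transcript was counted, so Casp1 was left out of tests that join the kinds of file.

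**Figure D1:**
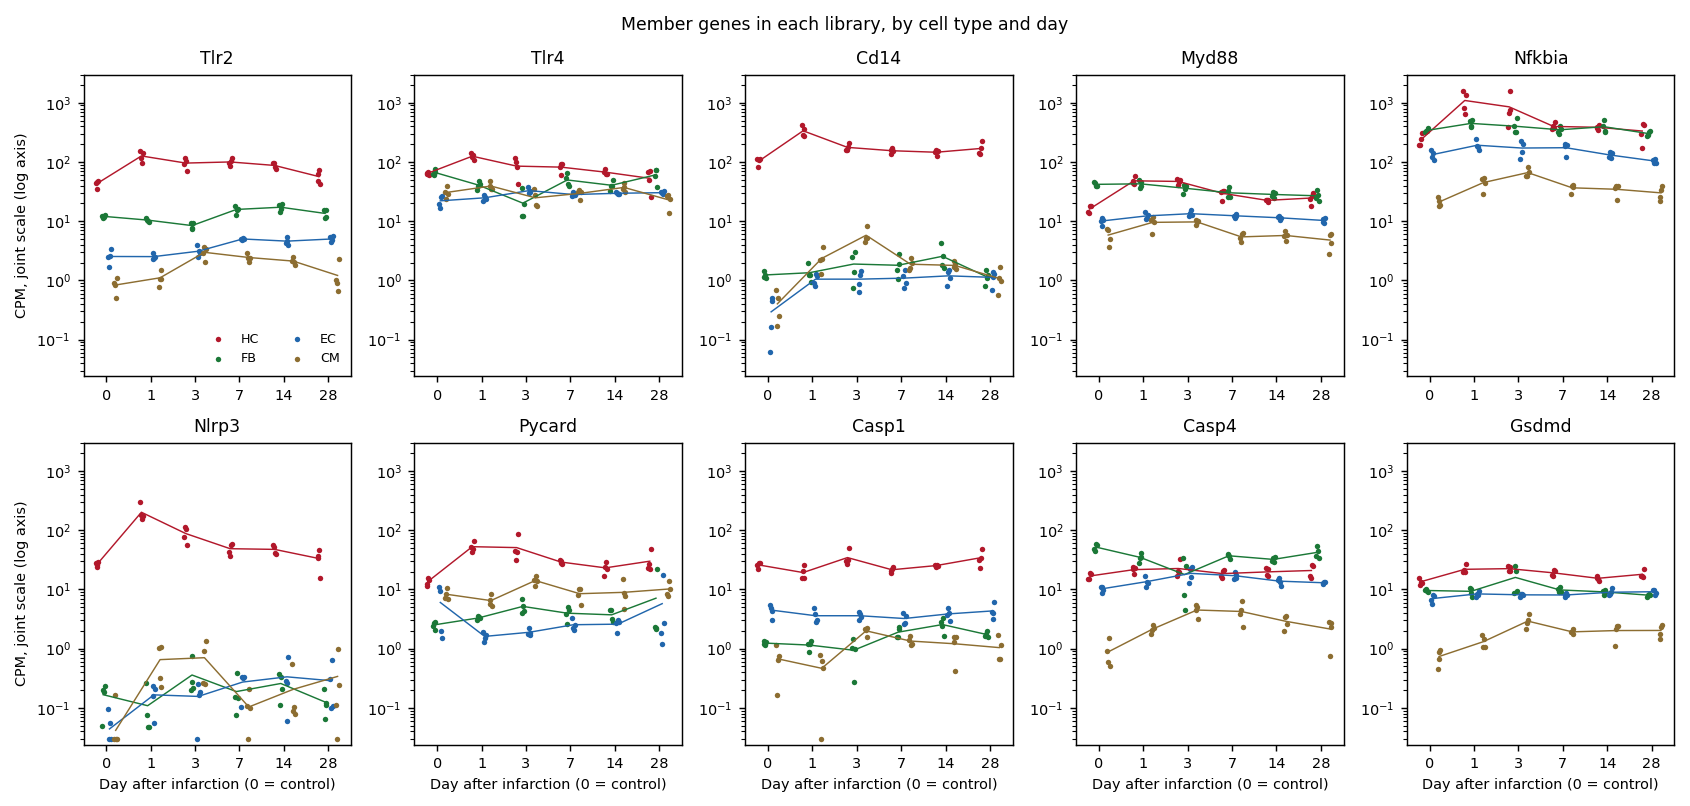
Level of each of the 10 genes in every library, with days after infarction on the horizontal axis and joint CPM on a logarithmic vertical axis. Points are libraries, lines join the group means of HC, FB, EC and CM, and libraries at 0 are drawn at the lower edge. Nlrp3 and Cd14 lie far above the other cell types in HC on all days, while Casp4 lies highest in FB at Day 0 and Tlr4 overlaps between all 4 cell types.

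Each cell type was compared with the mean of the 3 others over all days with edgeR's quasi-likelihood test and Benjamini-Hochberg adjustment. In HC all 9 members tested were higher, beside 78.4% of all genes called in that comparison and 44% called higher. The differences were 8.24 ± 0.12 for Nlrp3, 6.98 ± 0.08 for Cd14, 4.24 ± 0.05 for Tlr2 and 2.65 ± 0.14 for Pycard (log2 difference ± SE), down to 0.91 ± 0.08 for Casp4. The median of the 9 was 1.91, against 0.09 over all genes. In FB 5 members were higher and 3 lower (73.7% of all genes called), with Casp4 at 1.98 ± 0.08, Nfkbia at 1.44 ± 0.08 and Myd88 at 1.37 ± 0.05. In EC 2 members were higher and 7 lower (71.2% of all genes called), the higher ones being Gsdmd at 0.30 ± 0.06 and Casp4 at 0.24 ± 0.09. In CM 8 members were lower and 1 higher (81.4% of all genes called, with a median over all genes of −0.69). The exception, Pycard at 0.35 ± 0.16 (adjusted p = 0.041), lay at −0.91 on the log2(TPM + 1) scale. Cell type coincides with the batch of library preparation, and the 2 cannot be told apart. The counts of calls were the same without the libraries that stood apart. Leaving out each replicate number in turn gave 9 calls in HC, 7 or 8 in FB, 7 to 9 in EC and 8 or 9 in CM.

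Compared per transcript length, as median TPM in HC, Nfkbia (181 TPM) and Cd14 (62.8 TPM) were the most abundant members. Tlr2 (13 TPM), Nlrp3 (11.7 TPM), Casp1 (10.8 TPM), Casp4 (10.4 TPM), Myd88 (9.20 TPM), Gsdmd (8.63 TPM), Tlr4 (8.04 TPM) and Pycard (5.23 TPM) followed, and their ranges over the 24 libraries all overlapped. In FB the order began with Nfkbia (128 TPM), Casp4 (14.8 TPM) and Myd88 (9.66 TPM), and Nlrp3 closed it at 0.0169 TPM.

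Promoter sequences are shown for the 5 members with a match to a searched motif, as 300 bases of RefSeq sequence on GRCm38.p6, from 250 before to 50 after the annotated start. Promoters of 7 of the 10 genes were searched, on both strands, and those of Tlr4, Cd14 and Gsdmd were not. Of the 7 genes, 4 (Tlr2, Nlrp3, Nfkbia and Casp4) held a match to the NF-kB consensus of 10 letters. Pycard held the PU.1 core GAGGAAGT on the opposite strand, and Myd88 and Casp1 held neither motif. Nlrp3 and Casp4 each have 2 annotated starts in the table, and the first along the chromosome is shown. The other window of Nlrp3 (chr11:59542436-59542735) held no match, and that of Casp4 (chr9:5308610-5308909) held the same 2 groups of matches. Capitals mark the matches. They start at −173 and −8 in Tlr2 (chr3:83841559-83841858, minus strand), at −186 in Nlrp3 (chr11:59541319-59541618, plus strand), at −29 in Nfkbia (chr12:55492598-55492897, minus strand), at −93 and −39 in Casp4 (chr9:5308599-5308898, plus strand) and at −44 in Pycard (chr7:127993818-127994117, minus strand). The first matches in Tlr2 and Casp4 each consist of 2 overlapping ones.
Tlr2: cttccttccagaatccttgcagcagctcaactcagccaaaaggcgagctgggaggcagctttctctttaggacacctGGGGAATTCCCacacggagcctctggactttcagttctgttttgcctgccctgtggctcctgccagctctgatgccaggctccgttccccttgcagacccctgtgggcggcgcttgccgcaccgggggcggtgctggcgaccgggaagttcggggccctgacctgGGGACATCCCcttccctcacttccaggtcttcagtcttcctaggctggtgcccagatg
Nlrp3: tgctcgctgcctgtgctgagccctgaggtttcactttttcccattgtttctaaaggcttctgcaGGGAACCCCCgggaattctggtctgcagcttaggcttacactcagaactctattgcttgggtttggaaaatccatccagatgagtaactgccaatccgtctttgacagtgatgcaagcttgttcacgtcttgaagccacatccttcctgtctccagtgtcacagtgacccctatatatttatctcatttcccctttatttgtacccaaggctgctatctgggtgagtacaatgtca
Nfkbia: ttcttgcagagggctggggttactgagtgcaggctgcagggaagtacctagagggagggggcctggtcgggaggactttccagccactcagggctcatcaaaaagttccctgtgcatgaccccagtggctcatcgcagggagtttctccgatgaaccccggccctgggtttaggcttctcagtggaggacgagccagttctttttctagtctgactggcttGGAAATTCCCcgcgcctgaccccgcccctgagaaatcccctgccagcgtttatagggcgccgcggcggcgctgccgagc
Casp4: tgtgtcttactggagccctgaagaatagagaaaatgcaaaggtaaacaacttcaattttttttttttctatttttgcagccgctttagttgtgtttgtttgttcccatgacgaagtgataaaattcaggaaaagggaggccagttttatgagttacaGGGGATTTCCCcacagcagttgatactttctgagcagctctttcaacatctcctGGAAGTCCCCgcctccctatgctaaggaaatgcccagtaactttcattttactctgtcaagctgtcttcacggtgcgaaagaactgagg
Pycard: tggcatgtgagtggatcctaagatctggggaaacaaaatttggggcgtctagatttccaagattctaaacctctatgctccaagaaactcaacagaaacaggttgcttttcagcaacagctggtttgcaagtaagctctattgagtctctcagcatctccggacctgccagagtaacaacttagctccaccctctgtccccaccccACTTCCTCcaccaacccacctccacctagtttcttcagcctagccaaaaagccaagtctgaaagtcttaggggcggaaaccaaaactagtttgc
A match to the NF-kB consensus stood in 8.46% of the 32851 mouse promoters of this length, and the PU.1 core in 3.2%. The matches describe these letters only and say nothing of binding in these cells.

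In HC most members were higher soon after infarction, and their median change was largest at Day 1. Of the 9 tested, 8 were higher at Day 1 (all but Casp4), 7 at Day 3, 6 at Day 7, 4 at Day 14 and 4 at Day 28, and none was lower on any day. In the same comparisons 41.9%, 46.5%, 28%, 12.9% and 21.8% of all genes were called, and 18.1%, 23.3%, 14.1%, 6.12% and 11.4% were called higher. The median log2 fold change of the members was 1.5 at Day 1, against −0.10 over all genes, and 1.06 at Day 3, against −0.02 over all genes. The 5 comparisons share the Day 0 libraries. The HC files of Day 1 and Day 7 list transcripts, and those of Day 0 and the other days list genes. At Day 1 and Day 7 against Day 0 the day and the kind of file thus cannot be told apart. By groups that do not overlap, 8 of the 10 members lay above all Day 0 libraries at Day 1, beside 25.2% of all genes.

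**Figure D2:**
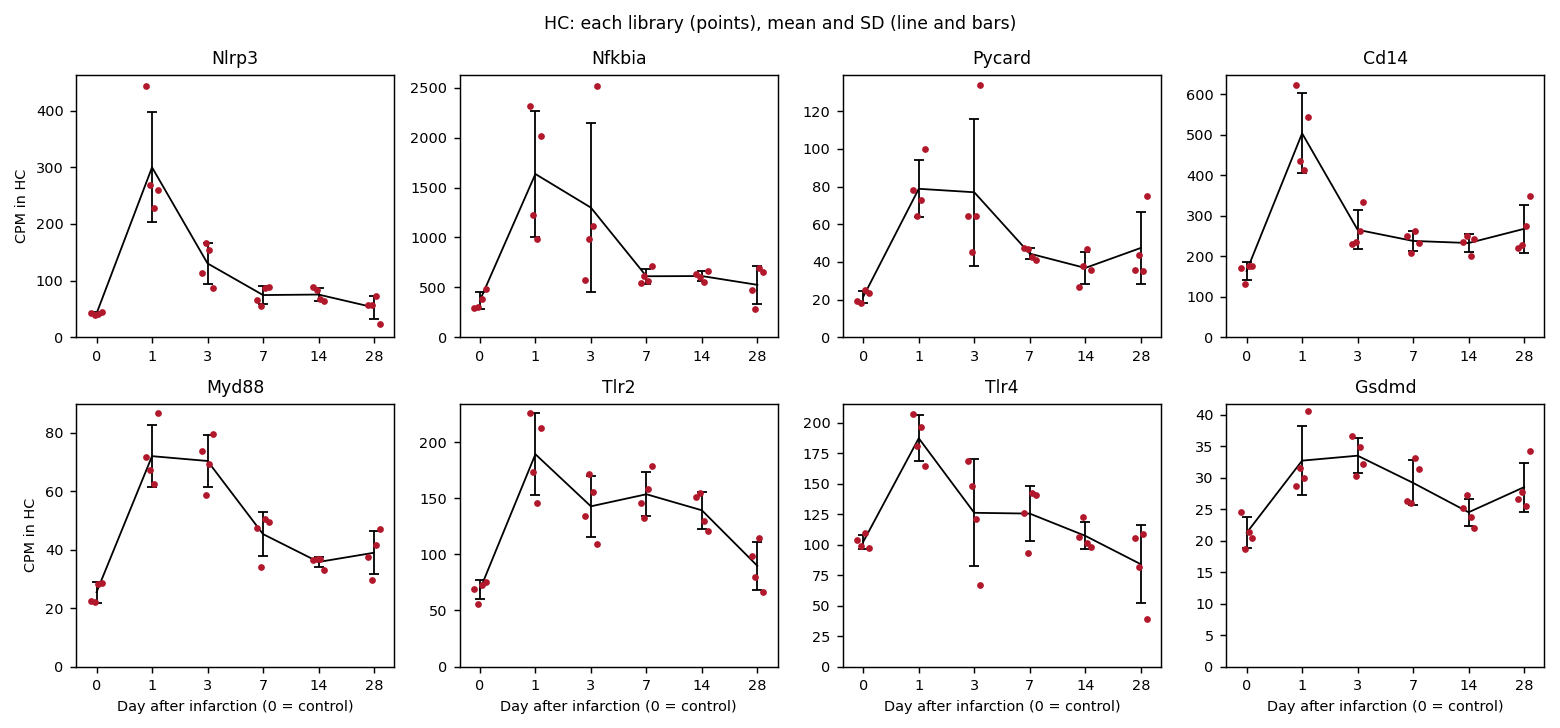
Course of 8 members in HC, with the day on the horizontal axis and CPM on the vertical axis. Points are the 4 libraries of a day and bars the mean ± SD. Nlrp3 and Cd14 peak at Day 1, whereas Myd88 and Pycard stand about as high at Day 3 as at Day 1.

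Among the receptors of HC, Tlr2 and Cd14 kept a raised level for longer than Tlr4. Tlr2, the receptor for bacterial lipoproteins (chr3:83836272-83841767, minus strand), had 226, 174, 146 and 212 CPM at Day 1, against 69.4, 56.2, 72.8 and 75.6 CPM at Day 0. It stayed above all Day 0 libraries through Day 14, with 134, 172, 156 and 110 CPM at Day 3, 146, 132, 158 and 178 CPM at Day 7 and 152, 155, 130 and 121 CPM at Day 14. The log2 fold changes were 1.47 ± 0.17 at Day 1 (adjusted p = 6.8e-07), 1.06 ± 0.17 at Day 3 (2.7e-05), 1.17 ± 0.17 at Day 7 (2.1e-05) and 1.02 ± 0.17 at Day 14 (0.00033). At Day 28 the 4 libraries held 98.5, 79.6, 115 and 66.3 CPM, overlapping Day 0, and the log2 fold change of 0.39 did not pass edgeR's test (adjusted p = 0.11). Without the 2 Day 28 libraries that stood apart it was called (0.64, adjusted p = 0.024).

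Cd14, on chromosome 18, had 624, 434, 412 and 543 CPM at Day 1, against 172, 131, 175 and 176 CPM at Day 0. The gap between the groups was wider than the spread within either, and the log2 fold change was 1.62 ± 0.17 (adjusted p = 8.1e-08). On later days it was 0.70 ± 0.16 at Day 3, 0.54 ± 0.16 at Day 7, 0.51 ± 0.16 at Day 14 and 0.71 ± 0.16 at Day 28, with adjusted p between 0.0011 and 0.039, and all 16 of these libraries lay above Day 0. Without the lowest Day 0 library, replicate 2, the Day 7 value was 0.45 (adjusted p = 0.075), and the Day 14 call was lost without any one of 7 libraries (adjusted p up to 0.17).

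Tlr4, the receptor for lipopolysaccharide (chr4:66827584-66930284, plus strand), had 207, 181, 197 and 164 CPM at Day 1, against 104, 99.2, 110 and 97.1 CPM at Day 0. The groups did not overlap, and the log2 fold change was 0.87 ± 0.25 (adjusted p = 0.0073). At Day 3 the libraries spread over 169, 148, 121 and 67.0 CPM, which overlapped Day 0 (0.30, adjusted p = 0.34). No later day passed the test. Myd88, the adaptor of both receptors (chr9:119335934-119341411, minus strand), had 71.7, 67.2, 62.5 and 86.8 CPM at Day 1 and 73.8, 58.9, 69.2 and 79.6 CPM at Day 3, against 22.5, 22.1, 28.4 and 28.8 CPM at Day 0. Day 1 and Day 3 lay at the same height and both far above Day 0, with 1.5 ± 0.15 (adjusted p = 6.8e-08) and 1.47 ± 0.15 (5.6e-08). Its log2 fold change was 0.83 ± 0.15 at Day 7, 0.49 ± 0.15 at Day 14 and 0.61 ± 0.15 at Day 28, called on each day, though the Day 14 call was lost without any one of 5 libraries (adjusted p up to 0.12). Myd88 shares bases with Slc22a14 on its own strand and Acaa1a on the other, so a part of its reads may belong to these genes.

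Nlrp3 had the largest rise of the members in HC. The gene, whose product is the sensor of the best studied inflammasome (chr11:59541568-59566956, plus strand), had 443, 269, 229 and 260 CPM at Day 1, against 43.0, 38.85, 40.9 and 45.3 CPM at Day 0. The mean was 300 ± 96.8 CPM at Day 1 and 42.0 ± 2.76 CPM at Day 0 (SD), and the log2 fold change was 2.84 ± 0.28 (adjusted p = 6e-08). It held 114, 166, 154 and 87.4 CPM at Day 3, a log2 fold change of 1.64 ± 0.27 (3.2e-05). At Day 7 (0.83 ± 0.27, adjusted p = 0.022) and Day 14 (0.85 ± 0.27, adjusted p = 0.037) every library still lay above Day 0, but the calls were lost without any one of 4 (adjusted p up to 0.063) and 7 libraries (up to 0.11). At Day 28 the libraries held 57.8, 56.3, 72.6 and 24.2 CPM and overlapped Day 0.

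Pycard, the gene of the adaptor ASC (chr7:127989708-127993867, minus strand), had 78.2, 64.6, 72.7 and 99.8 CPM at Day 1 and 64.6, 45.1, 64.6 and 134 CPM at Day 3, against 19.5, 18.3, 25.1 and 23.3 CPM at Day 0. Both days lay wholly above Day 0, with 1.87 ± 0.28 (adjusted p = 1.2e-05) and 1.84 ± 0.28 (1.1e-05). At Day 7 it had 47.3, 46.7, 42.7 and 41.1 CPM (1.05 ± 0.27, adjusted p = 0.0058), and at Day 14 it did not pass (0.77, adjusted p = 0.067, with an adjusted p of 0.033 when the libraries of Day 28 that stood apart were left out of the fit). Its Day 28 call, 1.14 ± 0.27 (adjusted p = 0.0046), was 0.72 (adjusted p = 0.13) without the 2 Day 28 libraries that stood apart.

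Among the effector genes of the inflammasome in HC, Gsdmd had small rises and Casp4 was called on no day. Gsdmd, the pore-forming substrate of the caspases (chr15:75862327-75867408, plus strand), had 28.7, 31.6, 29.96 and 40.7 CPM at Day 1 and 36.6, 30.3, 34.9 and 32.2 CPM at Day 3, against 24.5, 18.6, 21.4 and 20.5 CPM at Day 0. The groups did not overlap, and the log2 fold changes were 0.62 ± 0.13 (adjusted p = 0.00042) and 0.66 ± 0.13 (0.00019). It was also higher at Day 7 (0.46 ± 0.13) and Day 28 (0.42 ± 0.13), and the Day 28 value was 0.30 (adjusted p = 0.23) without the libraries that stood apart. That call was also lost without any one of 3 libraries, Day 0 replicates 2 and 4 among them (adjusted p up to 0.079). Casp4 (chr9:5308828-5336783, plus strand) had 34.9, 32.9, 27.1 and 34.3 CPM at Day 1, against 23.3, 23.7, 30.4 and 29.2 CPM at Day 0. Its groups overlapped on all 5 days and it was the member of the 9 that was called on none, with log2 fold changes between 0.09 and 0.35. Of the members with an NF-kB match shown above, Tlr2, Nlrp3 and Nfkbia were called at Day 1 and Casp4 was not. Myd88 and Pycard, which held no such match, were called at Day 1 too. So were Tlr4, Cd14 and Gsdmd, whose promoters were not searched. A relation of matches to calls was not tested.

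Casp1, the gene of caspase-1 (chr9:5298517-5307265, plus strand), could be compared in HC only between days with the same kind of file. It had 43.8, 38.93, 45.9 and 79.5 CPM at Day 3, 41.6, 38.8, 41.4 and 39.1 CPM at Day 14 and 49.9, 37.9, 52.3 and 76.3 CPM at Day 28, against 40.1, 35.7, 44.6 and 43.6 CPM at Day 0. All 3 days overlapped Day 0, with 0.37 ± 0.22, −0.02 ± 0.22 and 0.43 ± 0.22 (adjusted p = 0.20, 0.98 and 0.19). Day 7 against Day 1 gave 0.20 ± 0.17 (adjusted p = 0.44).

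Nfkbia (chr12:55489410-55492647, minus strand) had 2321, 1226, 984 and 2012 CPM at Day 1, against 298, 309, 387 and 484 CPM at Day 0. At Day 3 it had 578, 988, 1110 and 2519 CPM, again all above Day 0 but over a wide range. The log2 fold changes were 2.15 ± 0.36 (adjusted p = 4.6e-05) and 1.81 ± 0.35 (0.0002). At Day 7 and Day 14 all libraries, between 549 and 713 CPM, lay above Day 0, yet neither day passed the test (both 0.73, adjusted p = 0.12 and 0.19).

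The decline after the first days was tested between days. Of these comparisons, only Day 3 against Day 1 joins both kinds of file. At Day 3 against Day 1, Nlrp3 (−1.20 ± 0.27, adjusted p = 0.0039) and Cd14 (−0.92 ± 0.16, adjusted p = 0.00055) were lower, beside 12% of all genes called. At Day 7 against Day 1 (22.3% of all genes called) 5 members were lower: Nlrp3 (−2.01 ± 0.27), Nfkbia (−1.42 ± 0.35), Cd14 (−1.08 ± 0.16), Pycard (−0.83 ± 0.27) and Myd88 (−0.67 ± 0.15). At Day 14 against Day 3 (34.2% of all genes called) 5 were lower, Nfkbia (−1.08), Pycard (−1.06), Myd88 (−0.98), Nlrp3 (−0.79) and Gsdmd (−0.45). At Day 28 against Day 14 (3.01% of all genes called) Tlr2 alone was lower, at −0.63 ± 0.17 (adjusted p = 0.046), and it was at −0.38 (adjusted p = 0.87) without the libraries that stood apart. No member was higher in these 4 comparisons. Tlr4 was also lower than at Day 1 when the libraries that stood apart were left out, at Day 3 (−0.57, adjusted p = 0.045) and at Day 7 (−0.58, adjusted p = 0.028). Without HC Day 3 replicate 4 the Day 14 value of Nfkbia against Day 3 was −0.54 (adjusted p = 0.18). The calls of Nlrp3 at Day 14 against Day 3, Pycard at Day 7 against Day 1 and Tlr2 at Day 28 against Day 14 were lost without any one of 4, 6 and 6 libraries (adjusted p up to 0.078, 0.098 and 0.21).

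Markers of leukocyte types moved in the HC isolate as well. The 10 neutrophil genes (S100a8, Ly6g, Cxcr2 and others) summed to 2386 CPM at Day 1 (1898 to 3318 CPM), against 195 CPM at Day 0 (145 to 285 CPM), a ratio of 12.2 that was 3.57 at Day 3. The 8 monocyte genes (Ly6c2, Ccr2 and others) were 5.87 times their Day 0 sum at Day 1 and 3.22 times at Day 3, and the 12 macrophage genes 0.755 and 0.922 times. The 4 HC markers were 1.52 times their Day 0 sum at Day 1 and the 4 CM markers 0.224 times. No gene of these lists was at 0 in all libraries of a day. The part of the isolate's composition in the members' rise was not tested. Per read of the 4 HC markers, Nlrp3 had a median of 0.176 reads at Day 1 (0.168 to 0.281), against 0.0424 at Day 0 (0.0397 to 0.0478). The median was also larger at Day 1 for Nfkbia (1.08 against 0.369), Cd14 (0.334 against 0.168) and Tlr2 (0.128 against 0.0691). So it was for Pycard (0.0515 against 0.0225) and Myd88 (0.0457 against 0.0268). For Tlr4 the ranges overlapped (0.110 to 0.145 at Day 1 and 0.0956 to 0.112 at Day 0). Gsdmd had 0.0214 against 0.0217, and Casp4 0.0219 against 0.0286.

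In CM the members were scarce, and most of them were called at Day 3. Of the 9 tested, 4 were higher at Day 1, 8 at Day 3, 5 at Day 7, 5 at Day 14 and 1 at Day 28, and none was lower than at Day 0. Of all genes, 11.4%, 30.5%, 13.3%, 13.8% and 3.58% were called in these comparisons, and 6.8%, 16%, 8.92%, 8.05% and 2.49% called higher. The members' median log2 fold change at Day 3 was 1.58, against −0.06 over all genes. Nlrp3 had 0 to 13 reads in every CM library and was not tested.

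Cd14 had the largest rise in CM. It had 0.649, 0.369, 0.633 and 1.03 CPM at Day 1 and 1.21, 1.41, 1.40 and 2.30 CPM at Day 3, against 0.196, 0.0474, 0.147 and 0.0719 CPM at Day 0. These levels rest on 12 to 31 reads a library at Day 1 and 50 to 80 at Day 3, against 2 to 6 at Day 0. The groups did not overlap, and the log2 fold changes were 2.59 ± 0.40 (adjusted p = 8.5e-05) and 3.82 ± 0.37 (3.9e-08). It was still higher at Day 7 (2.279 ± 0.41) and Day 14 (2.20 ± 0.40), and at Day 28 it did not pass (1.34, adjusted p = 0.082).

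Casp4 had 1.48, 1.22, 1.33 and 0.864 CPM at Day 3 in CM, against 0.261, 0.166, 0.440 and 0.144 CPM at Day 0, from 30 to 61 reads and 6 to 12 reads a library. The groups stood apart, with 2.34 ± 0.39 (adjusted p = 6.1e-05), and the level was alike at Day 7 (2.31 ± 0.39). Its Day 1 call (1.34 ± 0.41, adjusted p = 0.034) was lost when any of 5 libraries was left out (adjusted p up to 0.12). Gsdmd had 0.582, 0.734, 0.827 and 1.04 CPM at Day 3, against 0.130, 0.189, 0.257 and 0.263 CPM at Day 0 (1.89 ± 0.29, adjusted p = 2.1e-05), and was the one member called at Day 28 (1.40 ± 0.31, adjusted p = 0.015; 1.26 and 0.093 without Day 28 replicate 4). Tlr2 had 0.800, 0.986, 0.551 and 0.922 CPM at Day 3, against 0.261, 0.237, 0.147 and 0.311 CPM at Day 0 (1.73 ± 0.30, adjusted p = 0.0001), and was also called at Day 7 and Day 14. In all 3 genes the Day 3 libraries lay above every Day 0 library.

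Nfkbia, with more reads, showed the course in CM most clearly. It had 15.2, 8.37, 15.1 and 12.5 CPM at Day 1, 15.9, 15.6, 21.8 and 18.8 CPM at Day 3, and 8.15, 11.5, 11.4 and 10.8 CPM at Day 7, against 7.37, 5.12, 6.35 and 5.32 CPM at Day 0. None of these 12 libraries overlapped Day 0. The log2 fold changes were 1.09 ± 0.21 (adjusted p = 0.00084), 1.58 ± 0.21 (2.6e-06) and 0.80 ± 0.21 (0.0099). Myd88 (0.66 ± 0.22, adjusted p = 0.027), Pycard (0.71 ± 0.27, adjusted p = 0.047) and Casp1 (1.53 ± 0.47, adjusted p = 0.017) were called at Day 3 too. The Pycard and Myd88 calls were lost without any one of 6 and 3 libraries (adjusted p up to 0.12 and 0.075), and Casp1 was at 1.17 (adjusted p = 0.065) without Day 0 replicate 2. At Day 14 Nfkbia was called as well (0.71 ± 0.20), and at Day 1 Myd88 (0.70 ± 0.22), and these were lost without any one of 4 and 5 libraries (adjusted p up to 0.087 and 0.14). Tlr4 passed against Day 0 on no day, but was lower at Day 3 than at Day 1, with 9.63, 7.51, 5.12 and 4.90 CPM at Day 3, against 11.3, 13.7, 9.68 and 10.1 CPM at Day 1 (−0.72 ± 0.21, adjusted p = 0.02, and up to 0.086 without any one of 3 libraries).

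Between later days in CM, 5 members were higher and Tlr4 lower at Day 3 against Day 1 (14.9% of all genes called), with Casp1 at 2.00, Tlr2 at 1.36, Cd14 at 1.23, Gsdmd at 1.07 and Pycard at 1.05. At Day 7 against Day 3 (8.94% of all genes called) Cd14 (−1.54), Nfkbia (−0.78) and Myd88 (−0.77) were lower. At Day 28 against Day 14 (13.6% of all genes called) Tlr4 was lower (−0.67 ± 0.21, adjusted p = 0.037). The Nfkbia, Myd88 and last Tlr4 calls were lost without any one of 2 (Day 3 replicate 3 or Day 7 replicate 1), 6 and 4 libraries, with adjusted p up to 0.077, 0.098 and 0.12. At Day 14 against Day 7 edgeR called 0 members (0.055% of all genes called), with 0 at an unadjusted p under 0.05 and 0 called by DESeq2.

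Summed leukocyte markers were larger in the CM isolate on the same days. The 4 HC markers summed to 5.87 CPM at Day 3, against 0.345 CPM at Day 0, a ratio of 17 that was 5.98 at Day 1 and 7.86 at Day 7. The 12 macrophage genes summed to 32.6 CPM at Day 3, against 2.55 CPM at Day 0, and the 8 monocyte genes to 74.0 CPM at Day 3, against 7.3 CPM at Day 0. The 10 neutrophil genes were 1.54 times their Day 0 sum, with Ly6g and Ngp at 0 at Day 3. Their part in the members' rise in CM was not tested. Per read of the HC markers, the median over 24 libraries was 0.297 reads of Cd14 in CM, against 0.188 in HC. The same ratio was 7.03 in CM against 0.49 in HC for Nfkbia, 6.31 against 0.0963 for Tlr4, and 0.0306 against 0.0596 for Nlrp3. These medians join all days. In CM the median at Day 0 and Day 3 was 18.2 and 3.12 for Nfkbia and 25.3 and 1.02 for Tlr4. For Tlr2 it was 0.933 and 0.142. It was also lower at Day 3 for Myd88, Pycard, Casp1, Casp4 and Gsdmd. For Cd14 it was 0.225 and 0.248, and for Nlrp3 0 and 0.0242. In HC at Day 3 it was 0.708 for Nfkbia, 0.0907 for Tlr4 and 0.0969 for Tlr2.

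**Figure D3:**
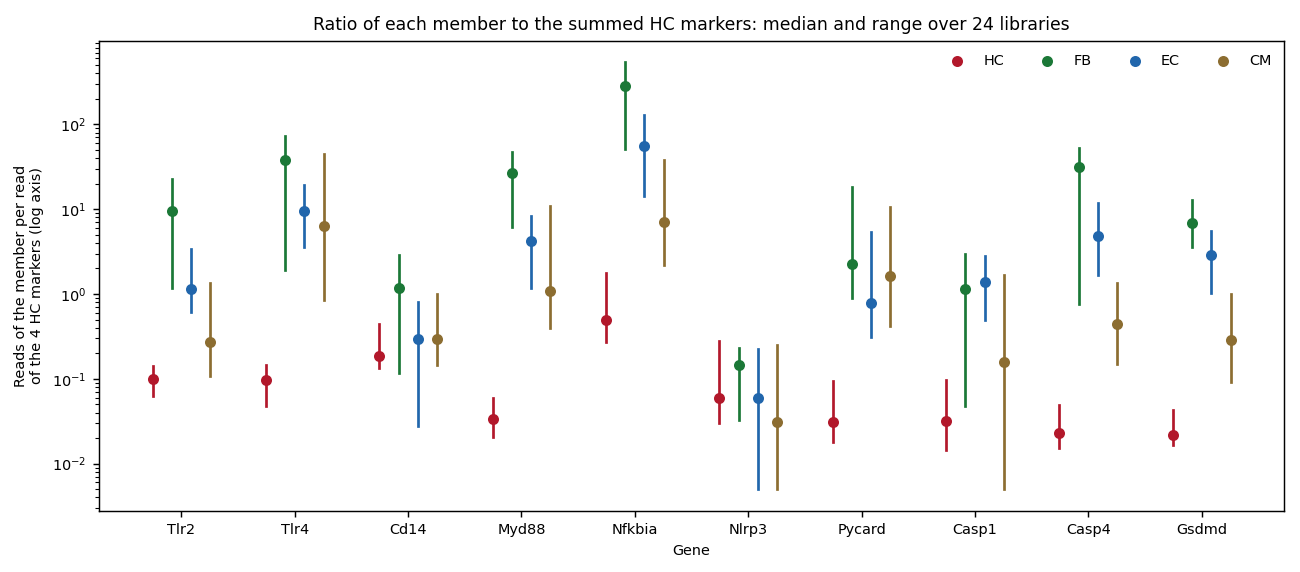
Reads of each member per read of the 4 HC markers in HC, FB, EC and CM, on a logarithmic axis, as the median and range over the 24 libraries of a cell type, with zeros at the lower edge. Cd14 (0.188 in HC, 0.293 in EC and 0.297 in CM) and Nlrp3 lie close together between these cell types, while the other members lie well above the HC ratio in FB and EC.

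In EC changes were small, and several of them rested on the 2 Day 0 libraries that stood apart. Of the 10 members, 2 were called at Day 1, 5 at Day 3, 6 at Day 7, 5 at Day 14 and 5 at Day 28, in all 21 higher and 2 lower of 50. Of all genes, 19%, 45.5%, 37.6%, 27% and 33.7% were called in these comparisons. Without the libraries that stood apart, 10 of the 50 were called, beside 6.53%, 31.4%, 22.2%, 9.60% and 17.3% of all genes on the 5 days. The members' median log2 fold change was 0.38 at Day 3, against −0.03 over all genes.

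Casp4 at Day 3 and Day 7, Tlr2 from Day 7 on, Cd14 at Day 3, Day 7 and Day 14, and Tlr4 and Myd88 at Day 3 were the 10 EC calls that stood with and without these libraries. Casp4 had 18.97, 33.2, 24 and 36.5 CPM at Day 3 and 22.6, 29.3, 22.9 and 26.2 CPM at Day 7, against 17.5, 13.9, 16.3 and 14.2 CPM at Day 0. No library overlapped, with 0.86 ± 0.16 (adjusted p = 0.00022) and 0.71 ± 0.16 (0.0021), and 0.89 and 0.73 without the libraries that stood apart. Tlr2 had 7.41, 7.21, 7.73 and 7.44 CPM at Day 7, against 3.93, 2.70, 3.86 and 4.77 CPM at Day 0 (0.96 ± 0.16, adjusted p = 7.8e-05), and was also higher at Day 14 (0.82) and Day 28 (0.99). It rose after Day 3: at Day 7 against Day 3 the log2 fold change was 0.67 ± 0.16 (adjusted p = 0.0032, 23.2% of all genes called). Without the libraries that stood apart its values against Day 0 were 0.79, 0.65 and 0.81.

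Tlr4 had 57.3, 44.95, 46.7 and 49.0 CPM at Day 3 in EC, against 30.8, 26.6, 37.2 and 38.4 CPM at Day 0. Each Day 3 library was above each Day 0 library, with 0.57 ± 0.10 (adjusted p = 7.2e-05) and 0.39 (adjusted p = 0.0046) without the libraries that stood apart. Its calls at Day 7, Day 14 and Day 28 (0.33, 0.38 and 0.46) were lost without them. Tlr4 (0.44 ± 0.10, adjusted p = 0.0025) and Casp4 (0.50, adjusted p = 0.029) were also higher at Day 3 than at Day 1 (22.5% of all genes called), the Casp4 call being lost without any one of 5 libraries (adjusted p up to 0.13). Myd88 had 17.98, 20.9, 22.7 and 19.2 CPM at Day 3, against 16.3, 13.2, 16.5 and 15.0 CPM at Day 0 (0.40 ± 0.10, adjusted p = 0.0023; 0.36 and 0.027 without those libraries).

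Cd14, of few reads in EC, had 1.36, 1.19, 1.87 and 1.75 CPM at Day 1, against 0.0994, 0.258, 0.650 and 0.731 CPM at Day 0, where the 2 lowest values were those of the libraries that stood apart. The log2 fold change was 1.79 ± 0.41 (adjusted p = 0.0043) and 1.16 (adjusted p = 0.079) without them, and on the later days 1.82 to 1.97 with them and 1.17 to 1.33 without. Without them it was still called at Day 3 (adjusted p = 0.023), Day 7 (0.028) and Day 14 (0.036), and not at Day 28 (0.053). Pycard had 2.87, 1.95, 2.19 and 2.46 CPM at Day 1, against 17.6, 14.9, 2.88 and 2.19 CPM at Day 0, and its call of −1.98 ± 0.68 (adjusted p = 0.047) was −0.10 (adjusted p = 0.89) without them. Its call at Day 3 (−1.72 ± 0.67, adjusted p = 0.043) turned to 0.16 (adjusted p = 0.69). Gsdmd (0.30 ± 0.10 at Day 14 and 0.38 at Day 28) and Myd88 at Day 7 (0.27) lost their calls as well. Nlrp3 had 0 to 3 reads in a Day 0 library and 2 to 22 in the libraries of Day 7, Day 14 and Day 28, where it was called (adjusted p = 0.021, 0.017 and 0.017), and no fold is given for so few reads. Each of these calls was lost without Day 0 replicate 2 and without 1 library of its day (Day 7 replicate 2, Day 14 replicate 4 and Day 28 replicate 3), and the Day 7 call also without Day 0 replicate 4 (adjusted p up to 0.12). Casp1 and Nfkbia were not called in EC. Tlr4 at Day 7 against Day 3 in EC was called only when these libraries were left out (−0.24, adjusted p = 0.028). In EC edgeR called 0 members at Day 14 against Day 7 (2.29% of all genes called, 1 member at an unadjusted p under 0.05) and 0 at Day 28 against Day 14 (0.981% of all genes called, 0 members at an unadjusted p under 0.05), and DESeq2 called 0 in both. The HC markers in EC were 1.33, 1.21, 1.68, 1.56 and 2.58 times their Day 0 sum on Day 1, 3, 7, 14 and 28, and the part of leukocytes in the EC isolate was not tested.

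FB were the cell type in which Tlr4 and Casp4 fell against Day 0. Of the 10 members, 1 was lower at Day 1, 3 were higher and 2 lower at Day 3, 1 was higher at Day 7, 3 were higher and 1 lower at Day 14, and 1 was lower at Day 28. Of all genes, 17.9%, 49.1%, 14.3%, 10.9% and 3.49% were called, and the count of 12 member calls in 50 tests was 21 without the libraries that stood apart and 5 without Day 0 replicate 1. The 21 comprised 4 calls each of Casp4 and Pycard, 3 of Tlr4 and 2 each of Tlr2, Cd14, Myd88, Casp1 and Nfkbia. In that fit 32.1%, 47.8%, 25.1%, 20.7% and 5.36% of all genes were called on Day 1, 3, 7, 14 and 28. The members' median log2 fold change at Day 3 was 0.22, against −0.02 over all genes.

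Tlr4 had 49.5, 59.1, 71.0 and 64.8 CPM at Day 1 and 55.7, 22.3, 22.3 and 31.8 CPM at Day 3 in FB, against 91.0, 86.7, 113 and 101 CPM at Day 0. All 8 libraries lay below Day 0, with −0.68 ± 0.23 (adjusted p = 0.046) and −1.49 ± 0.24 (4.4e-05). The Day 1 call was lost without any one of the 8 libraries compared (adjusted p up to 0.15). Without Day 3 replicates 2 and 3, which stood apart, the Day 3 value was −1.13 (adjusted p = 0.0007). At Day 28 it had 88.4, 115, 110 and 61.1 CPM and overlapped Day 0. Casp4 had 52.4, 14.9, 8.09 and 39.2 CPM at Day 3, against 70.1, 64.7, 85.4 and 82.7 CPM at Day 0. All 4 libraries were below Day 0 (−1.26 ± 0.30, adjusted p = 0.0016), and the value was −0.70 (adjusted p = 0.0023) without the 2 libraries that stood apart. Its Day 1, Day 7 and Day 14 libraries also lay below all of Day 0 without a call (−0.54, −0.47 and −0.67). When the libraries that stood apart were left out these 3 values were −0.50 (adjusted p = 0.0071), −0.42 (0.025) and −0.64 (0.0019), all called, and Tlr4 was called at Day 14 (−0.67, adjusted p = 0.012) and kept its Day 1 call (−0.64, adjusted p = 0.011).

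Nfkbia, Tlr2, Casp1 and Myd88 were called on 1 or 2 days each in FB. Nfkbia had 620, 591, 582 and 897 CPM at Day 3, against 460, 479, 486 and 560 CPM at Day 0, with no overlap (0.44 ± 0.16, adjusted p = 0.031; 0.62 and 0.0049 without the libraries that stood apart). Tlr2 had 28.4, 21.4, 24.1 and 28.4 CPM at Day 14, against 17.6, 16.3, 17.7 and 18.9 CPM at Day 0 (0.54 ± 0.12, adjusted p = 0.0033), and was higher at Day 7 too (0.41 ± 0.12, adjusted p = 0.02). Both days lay wholly above Day 0. Casp1 had 4.23, 3.61, 4.91 and 2.42 CPM at Day 14, against 1.96, 1.68, 1.69 and 1.89 CPM at Day 0 (1.07 ± 0.24, adjusted p = 0.0041). Myd88 had 40.4, 46.4, 36.7 and 44.7 CPM at Day 14, against 65.6, 62.3, 57.4 and 58.7 CPM at Day 0 (−0.54 ± 0.16, adjusted p = 0.026), and was lower at Day 28 as well (−0.56 ± 0.16, adjusted p = 0.049, and 0.054 without the library that stood apart). These groups did not overlap. The calls of Nfkbia at Day 3, Tlr2 at Day 7, Myd88 at Day 14 and Myd88 at Day 28 were lost without any one of 4, 4, 4 and 7 libraries (adjusted p up to 0.25, 0.10, 0.10 and 0.19).

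Pycard in FB had 6.14, 12.9, 9.61 and 6.97 CPM at Day 3 and 3.50, 3.45, 3.22 and 35.0 CPM at Day 28, against 3.54, 3.84, 3.07 and 4.19 CPM at Day 0. The Day 3 libraries all lay above Day 0, and the 35.0 CPM of Day 28 came from the library that stood apart. It was called on no day with all libraries, the Day 3 value being 1.16 (adjusted p = 0.11). When these were left out it was higher at Day 1 (0.47, adjusted p = 0.047), Day 3 (0.85, adjusted p = 0.0026), Day 7 (0.72, adjusted p = 0.0041) and Day 14 (0.62, adjusted p = 0.016). In the same fit Casp1 (0.68, adjusted p = 0.017) and Myd88 (−0.40, adjusted p = 0.0295) were called at Day 7 and Nfkbia (0.47, adjusted p = 0.014) at Day 1, days on which they were not called with all libraries.

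Cd14 was higher at Day 3 (0.97 ± 0.36, adjusted p = 0.029) and Day 14 (1.08 ± 0.33, adjusted p = 0.038) in FB, and both calls were lost without any one of 5 and 6 libraries (adjusted p up to 0.15 and 0.27). Gsdmd had 13.1, 45.3, 37.9 and 15.4 CPM at Day 3, against 14.0, 14.7, 13.6 and 13.47 CPM at Day 0, so the 2 high values were those of the libraries that stood apart. Its call of 0.88 ± 0.26 (adjusted p = 0.0075) was 0.04 (adjusted p = 0.79) without them. Nlrp3 had 1 to 14 reads in an FB library and was not called. At Day 7 against Day 3 (36.1% of all genes called) Tlr2 (0.71 ± 0.13), Tlr4 (1.08 ± 0.24), Casp1 (0.86) and Casp4 (0.79) were higher and Myd88 (−0.44) and Gsdmd (−0.82) lower, and without the libraries that stood apart Casp4, Myd88 and Gsdmd were at 0.28, −0.23 and 0.06. The Casp1 call was lost without Day 3 replicate 3 or Day 7 replicate 3 (adjusted p up to 0.053). At Day 3 against Day 1 (25.4% of all genes called) Tlr4 was lower (−0.81) and Gsdmd higher (0.88), at −0.49 and 0.02 without them. Nfkbia at Day 7 against Day 3 was called only without them (−0.52, adjusted p = 0.024). In FB edgeR called 0 members at Day 14 against Day 7 (0.0482% of all genes called), with 0 at an unadjusted p under 0.05 and 0 called by DESeq2. At Day 28 against Day 14 it called 0 (3.03% of all genes called), with 4 at an unadjusted p under 0.05 and 1 called by DESeq2. Without the library of Day 28 and the others that stood apart, 4 were called there: Tlr4 (0.77, adjusted p = 0.026) and Casp4 (0.50, adjusted p = 0.038) higher, and Cd14 (−1.17, adjusted p = 0.041) and Pycard (−0.73, adjusted p = 0.0295) lower. In the FB isolate at Day 3 the HC markers were 3.16 times, the CM markers 7.78 times and the FB markers 0.498 times their Day 0 sum, and the part of these in the FB results was not tested.

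**Figure D4:**
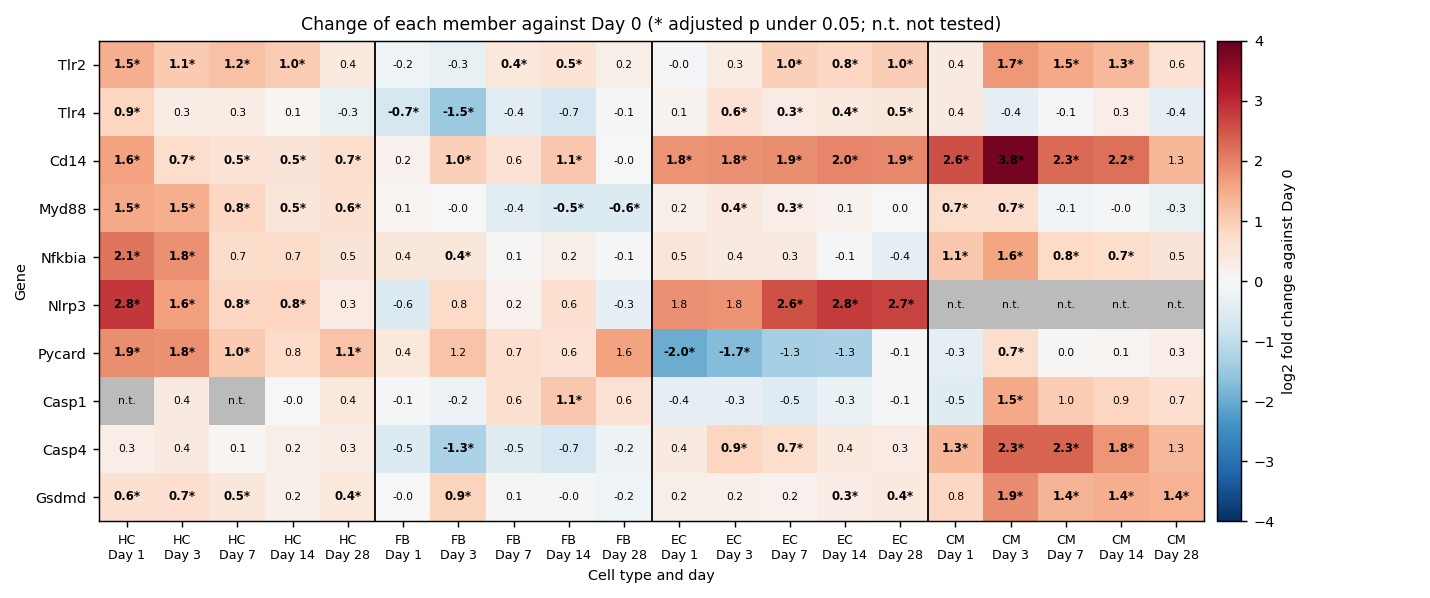
Log2 fold change of each member (rows) at each day against Day 0 in HC, FB, EC and CM (columns), as a heat map in which a star marks a call at an adjusted p under 0.05 and n.t. a value not tested. Every starred value of HC is positive, with Nlrp3 at 2.84 at Day 1, and starred values of Tlr4 and Casp4 are negative in FB at Day 3 (−1.49 and −1.26).

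Whether a change differed between cell types was tested directly, as the change from Day 0 in a cell type minus the mean change in the 3 others. In HC the kind of file changes between Day 0 and Day 1, so there the day and the kind of file cannot be told apart. The HC change is also part of the mean against which FB, EC and CM are set. The Day 1 values of these cell types thus carry the same limit. At Day 1 the change in HC was more positive for 5 of 9 members (29.1% of all genes called), led by Pycard (2.57 ± 0.43, and 1.94 without the libraries that stood apart, 2 of which were Day 0 libraries of EC), Nfkbia (1.55 ± 0.25) and Tlr2 (1.49 ± 0.18). The change in FB was more negative for 8 of 9 (16.2% of all genes called), led by Casp4 (−1.24 ± 0.19) and Tlr4 (−1.16 ± 0.16) among genes with more reads. Nlrp3 (−3.36 ± 0.74) and Cd14 (−1.87 ± 0.34) had larger values from few reads. For Nlrp3 these were 0 to 2 reads a library in CM and 0 to 3 in EC at Day 0, and 1 to 14 in FB over all days. The size of the Nlrp3 value is thus uncertain. In CM 1 differed (15.2% of all genes called) and in EC 1 (8.88% of all genes called), Pycard at −2.62, which was −0.76 (adjusted p = 0.092) without those libraries. Without them Cd14 (1.61, adjusted p = 0.018) and Pycard (−1.11, adjusted p = 0.0005) differed in CM as well, and Tlr2 (−0.77, adjusted p = 0.043) in EC. At Day 3 the change in CM was more positive for 4 members (18.8% of all genes called): Cd14 (2.65 ± 0.47), Casp4 (2.36 ± 0.50), Tlr2 (1.36 ± 0.27) and Gsdmd (1.31 ± 0.35). The change in FB was more negative for 6 (28.4% of all genes called), with Casp4 at −2.59 and Tlr4 at −1.79, or −2.06 and −1.40 without the libraries that stood apart. Without them Cd14 (−0.83, adjusted p = 0.074) and Nfkbia (−0.83, adjusted p = 0.17) no longer differed in FB and Gsdmd did (−0.9985, adjusted p = 0.00054). In HC 6 differed (25.6% of all genes called), 5 more positive and Cd14 more negative (−1.46), and in EC 3 differed (12% of all genes called), of which only Gsdmd (−0.76, adjusted p = 0.015) did without those libraries. The HC value of Pycard at Day 3 was 1.88 with all libraries and 1.34 without them. The medians of the 9 members were −0.83 in FB and 1.23 in HC at Day 1, against −0.01 and −0.03 over all genes.

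Other genes of the 2 pathways were counted from 8 lists in the same fits. Of all genes in HC at Day 1, 41.9% were called, and 18.1% of all genes were called higher. In HC at Day 1, 11 of 12 NF-kB target genes were higher and none lower, with a median log2 fold change of 1.88, against −0.10 over all genes. Ptgs2, the inducible cyclooxygenase, averaged 917 ± 273 CPM at Day 1 and 14.6 ± 2.82 CPM at Day 0 (SD), a log2 fold change of 5.97 ± 0.43. Of 15 negative regulators of these pathways 11 were higher and none lower (median 0.77), among them Tnfaip3 (A20, a ubiquitin-editing inhibitor of NF-kB) with 777 ± 268 CPM at Day 1 and 96.7 ± 15.8 CPM at Day 0 (3.01 ± 0.32). Of 17 adaptors and kinases 8 were higher and 1 lower (median 0.26), led by Ikbke, with 57.6 ± 5.64 CPM at Day 1 and 6.75 ± 1.12 CPM at Day 0 (3.09 ± 0.15). Of 5 NF-kB subunits 3 were higher, and 5 without the libraries that stood apart, where 46.9% of all genes were called.

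The receptor and sensor lists of HC were mixed. At Day 1, 18.1% of all genes were called higher and 23.8% lower, and of 10 other Toll-like receptors 3 were higher and 3 lower. Tlr13, a sensor of bacterial ribosomal RNA, rose (292 ± 20.5 CPM at Day 1 and 55.2 ± 3.14 CPM at Day 0, 2.41 ± 0.23), while Tlr11 was lower (−1.03). Of 8 co-receptors 2 were higher and 2 lower. Of 14 other inflammasome sensors 7 were higher and 2 lower (median 0.59): Mefv, the gene of pyrin, averaged 58.0 ± 10.2 CPM at Day 1 and 1.93 ± 0.371 CPM at Day 0 (4.91 ± 0.22), whereas Nlrc4, which acts with the NAIP sensors of flagellin, averaged 18.7 ± 0.952 CPM at Day 1 and 33.3 ± 1.32 CPM at Day 0 (−0.83 ± 0.11). Of 17 regulators, substrates and pore genes 5 were higher and 8 lower (median 0.07). Without the libraries that stood apart (46.9% of all genes called) 6 were higher and 8 lower. The substrate Il1b averaged 1021 ± 282 CPM at Day 1 and 50.5 ± 9.40 CPM at Day 0 (4.34 ± 0.35), and Casp12 was lower (−1.31). At Day 3 in HC, where 46.5% of all genes were called and 23.3% called higher, 11 of 17 adaptors and kinases and 8 of 12 NF-kB target genes were higher and 1 of each list lower. Without the libraries that stood apart (51.7% of all genes called) 12 and 9 were higher and 1 of each list lower.

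**Figure D5:**
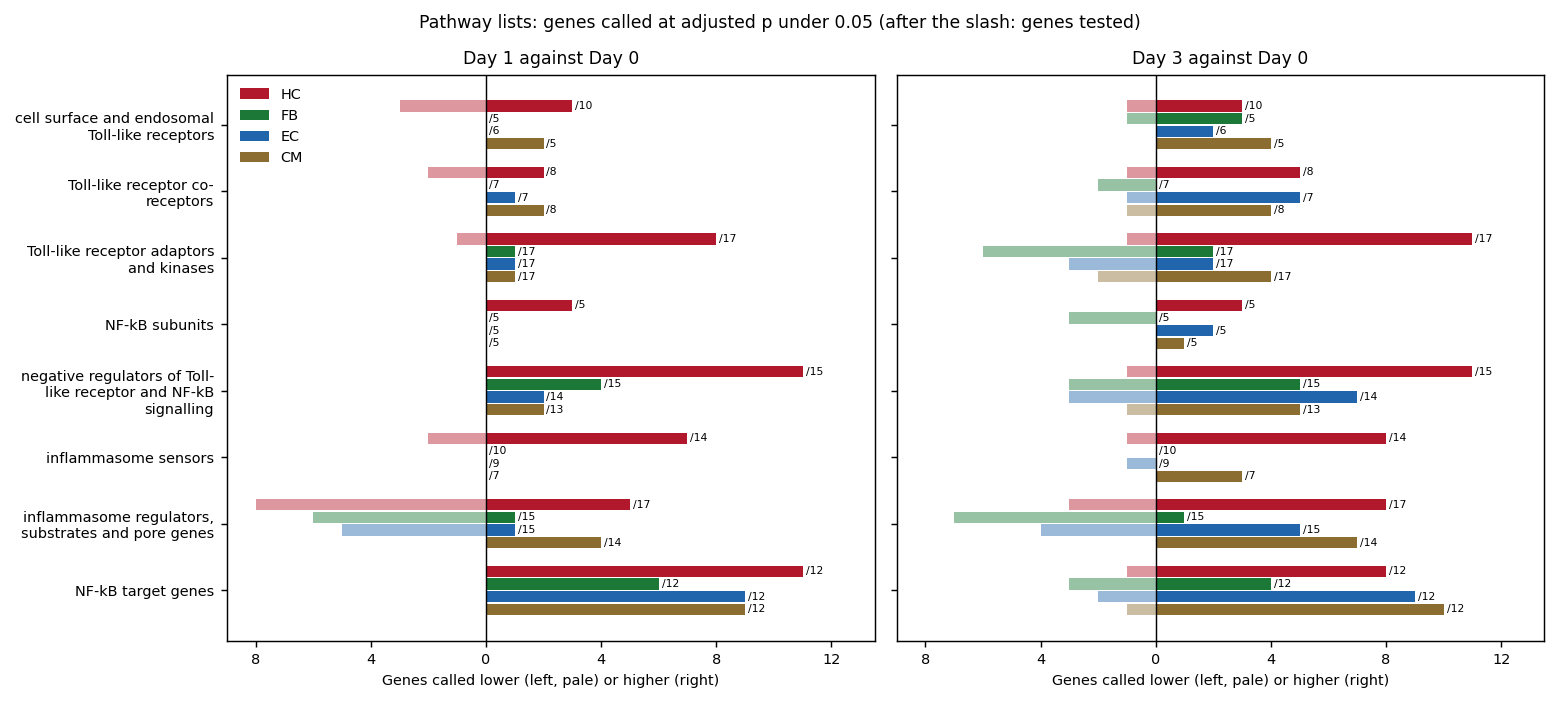
Number of genes of each of the 8 lists called higher (bars to the right) and lower (pale bars to the left) at Day 1 and Day 3 against Day 0, in HC, FB, EC and CM. The NF-kB target genes are called higher in each cell type at Day 1 (11 in HC, 6 in FB, 9 in EC and 9 in CM, of 12).

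NF-kB target genes were called in the other cell types too. In CM, 9 of 12 were higher at Day 1 (median 2.06, beside 11.4% of all genes called) and 10 higher and 1 lower at Day 3 (median 2.81, beside 30.5%). Cxcl2, a neutrophil-attracting chemokine, averaged 10.2 ± 4.04 CPM at Day 3 in CM, against 0.117 CPM at Day 0 (6.37 ± 0.61). In EC 9 were higher at Day 1 (median 1.24, beside 19% of all genes called), and 8 without the libraries that stood apart (6.53% of all genes called), among them Sele, the gene of E-selectin, with 24.6 CPM at Day 1 and 2.97 CPM at Day 0 (3.04). In FB 6 were higher at Day 1 (median 0.51, beside 17.9% of all genes called), and 7 without the libraries that stood apart (32.1% of all genes called), among them Cxcl2 with 317 CPM at Day 1 and 124 CPM at Day 0 (1.36). At Day 3 in FB, where 2 of the 4 libraries stood apart and 49.1% of all genes were called, 4 were higher and 3 lower (median 0.16), and 6 of the 17 adaptors and kinases and 7 of the 15 regulators, substrates and pore genes tested were lower. Without the libraries that stood apart (47.8% of all genes called), 6 of the target genes were higher and 3 lower (median 0.45), and 4 of the 17 and 3 of the 16 then tested were lower. Of the other lists in CM, 2 of 5 Toll-like receptors tested were higher at Day 1. At Day 3, 4 of 5 Toll-like receptors tested and 7 of 14 regulators, substrates and pore genes were higher.

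Some members also moved together between HC libraries. Over the 24 HC libraries, which share the days, the highest Pearson correlations of log2 levels were Myd88 with Pycard (0.89) and Nfkbia (0.86). Myd88 with Gsdmd had 0.85, Tlr2 with Nlrp3 0.84 and Cd14 with Nfkbia 0.83. Tlr4 with Casp4 had the lowest, −0.24, while Tlr4 with Pycard had 0.12 and Nlrp3 with Casp4 0.18. As deviations from the cell type mean over all 96 libraries, members ranged from −0.38 (Tlr4 with Gsdmd) to 0.72 (Myd88 with Nfkbia). Myd88 with Pycard had 0.23 there. Among 13134 genes, the gene whose deviations from the cell type mean were most like those of a member over all 96 libraries was Il1rn for Nlrp3 (r = 0.83, and 0.91 within HC), Basp1 for Nfkbia (0.84), Txnrd1 for Myd88 (0.81), Lhfpl2 for Tlr2 (0.80), Atrnl1 for Tlr4 (0.86), Ripk1 for Casp4 (0.81), Fcgr4 for Gsdmd (0.81), Anxa2 for Cd14 (0.72) and Fbxl2 for Pycard (0.78). For Pycard the value was 0.05 within CM, 0.93 within EC, 0.80 within FB and 0.69 within HC. The second gene was Hcar2 for Nlrp3 (r = 0.82, with 0.96 in HC and 0.10 in FB). These values describe libraries that share days, depth and isolation, and no test was made on them.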

How the data were processed

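Total RNA libraries of 4 cell types on 6 days (96 in all) were grouped by cell type and day from the labels. Per the labels, the authors used Trim Galore for trimming, STAR 2.28 for alignment to mm10 and Salmon for quantification. Each file deposited by the authors gives an estimated count (expected count) and a TPM value for each entry, and TPM, as the authors' file gives it, is relative abundance per length. Entries were transcripts in 56 files (CM, EC, and HC on Day 1 and Day 7) and genes in 40 files (FB, and HC on the other days). Transcripts were summed per gene with GENCODE M21. Reads of entries with no gene, up to 0.363% per library, were left out. Lengths of 260 genes, Casp1 among them, differed between the kinds of file, so these genes entered neither the HC fit nor the fits that join cell types.

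Each deposited estimated count was rounded, and edgeR 4.0.16 under R 4.3.3 gave the tests (TMM, filterByExpr with a minimum count of 10, robust quasi-likelihood fit, all 24 libraries of a cell type, or all groups compared). Benjamini-Hochberg adjustment ran across all genes within each comparison, with calls at adjusted p below 0.05, and all adjusted p in the text come from there. Errors are SE for log2 fold changes and SD (n = 4) for levels. Alternatives were DESeq2 1.42.0, limma 3.58.1 on log2(TPM + 1) and log2(TPM + 0.1), another scaling, no filter, no rRNA genes, only the 8 libraries of a comparison, the replicate number as a block, each library left out, and, chosen after seeing the data, leaving out the libraries that stood apart. Same-numbered pools of CM correlated in every pair at Day 1 (0.28 to 0.47) and Day 3 (0.24 to 0.48) with Day 0, and numbers elsewhere did not pair. The scripts were tested on simulated data.

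The 10 members, the pathway and marker lists and the tests were chosen with earlier results of these data known. Named were all members, up to 2 called genes with the highest and 1 with the lowest fold change per list, cell type and day at Day 1 and Day 3 (libraries not overlapping, mean of at least 1 CPM), and the 2 genes most like each member.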

Additional observations from a re-analysis of the deposited data

Results flagged for a closer look

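A difference between cell types in the change after infarction, tested with edgeR as the change from Day 0 in a cell type minus the mean change in the 3 others, passed the threshold for 34 member values. At Day 1 the change in HC was more positive for Pycard (2.57), Nfkbia (1.55), Tlr2 (1.49), Myd88 (1.23) and Tlr4 (1.01), all as log2 differences. The change in FB at Day 1 was more negative for Nlrp3 (−3.36, from few reads in FB, EC and CM), Cd14 (−1.87), Casp4 (−1.24), Tlr4 (−1.16), Nfkbia (−0.83), Tlr2 (−0.79), Myd88 (−0.78) and Gsdmd (−0.59). In CM it was more positive for Casp4 (1.28), and in EC more negative for Pycard (−2.62), which was −0.76 (adjusted p = 0.092) without the libraries that stood apart. At Day 3 the change in CM was more positive for Cd14 (2.65), Casp4 (2.36), Tlr2 (1.36) and Gsdmd (1.31). In HC it was more positive for Pycard (1.88), Myd88 (1.20), Nfkbia (1.10), Tlr4 (0.81) and Tlr2 (0.57) and more negative for Cd14 (−1.46). In FB it was more negative for Casp4 (−2.59), Tlr4 (−1.79), Tlr2 (−1.46), Cd14 (−1.19), Myd88 (−0.997) and Nfkbia (−0.95). In EC it was more positive for Tlr4 (1.15) and more negative for Pycard (−2.88) and Gsdmd (−0.87).

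In 9 of 230 member and group combinations 1 library lay far from the other 3, and chance alone marks about 1 in 20. Pycard had 26.9 CPM in EC Day 28 replicate 3, against 1.78 to 4.08 CPM in the others, and 35.0 CPM in FB Day 28 replicate 4, against 3.22 to 3.50 CPM, and both are libraries that stood apart. Nlrp3 had 0.154 CPM in EC Day 7 replicate 1, against 0.480 to 0.499 CPM, and 0.392 CPM in FB Day 1 replicate 1, against 0.0712 to 0.113 CPM, from few reads in each case. Nfkbia had 897 CPM in FB Day 3 replicate 4, against 582 to 620 CPM, and 179 CPM in EC Day 7 replicate 3, against 278 to 292 CPM. Cd14 had 131 CPM in HC Day 0 replicate 2, against 172 to 176 CPM. Myd88 had 33.1 CPM in HC Day 14 replicate 4, against 36.4 to 36.9 CPM. Casp4 had 0.200 CPM in CM Day 28 replicate 2, against 0.721 to 0.814 CPM.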

How the results depend on the processing

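Of 6833 alternative values of 456 single results, 6225 stayed on their side of the threshold, 414 were no longer called and 144 became called. Another 50 changed sign, 46 of these with limma on TPM. Signs were compared only where either fit made a call, so changes of sign between uncalled values are not counted. TPM carries no TMM scaling, and the median of all genes on that scale moved by −1.39 (FB Day 3 against Day 0) to 1.08 (FB Day 7 against Day 3), and by over 0.1 in 29 of 36 comparisons between days. Of 121 called values 113 kept their sign on TPM, and 118 did relative to that median. The depth of FB Day 3 and the few reads of Nlrp3, Cd14, Casp1 and Casp4 in CM, and of Nlrp3 and Cd14 in EC, limit what can be told of these genes.

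The number of calls against Day 0 was 23 in CM, and 10 with limma on log2(TPM + 1). In EC it was 23, and 10 without the libraries that stood apart. In FB it was 12, and 19 with DESeq2, 6 with no filter, 22 with only the 8 libraries compared and 21 without the libraries that stood apart. In HC it was 29, and 19 and 17 with limma on log2(TPM + 0.1) and log2(TPM + 1). Between later days, the 3 calls in EC were 7 and 6, the 13 in HC were 0 and 0, and the 8 in FB were 14 with the smaller pseudocount and 2 with only the 8 libraries compared. Of the differences between cell types at Day 1, limma on log2(TPM + 1) gave 0 calls in CM (1 in the report) and 2 in FB (8), and at Day 3 it gave 1 in CM (4). RLE scaling gave 2 for EC at Day 1 (1). Without the libraries that stood apart there were 3 in CM at Day 1 (1) and 1 in EC at Day 3 (3).

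Leaving out 1 library gave 23 to 31 calls against Day 0 for HC, 5 to 14 for FB, 16 to 25 for EC and 19 to 26 for CM, and between later days 11 to 14, 2 to 9, 2 to 4 and 7 to 11. In FB the calls against Day 0 were 5, 7 and 7 without Day 0 replicates 1, 2 and 3, and those between later days 3 and 2 without Day 3 replicates 2 and 3. Leaving out a replicate number gave, at Day 1, 5 or 6 differences for HC, 4 to 7 for FB, 1 for EC and 0 to 2 for CM, and at Day 3, 3 to 5, 4 to 7, 1 or 2 and 3 or 4.

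All same-numbered pairs correlated above 0.1 in 2 of 20 comparisons of days with Day 0, both in CM (Day 1 and Day 3). In those 2 comparisons the replicate block changed no member's call. Between later days in CM it gave 13 calls (6 higher and 7 lower), against 10 without the block. All same-numbered pairs correlated above 0.1 in 0 of 36 comparisons of cell types. Per the study, though, the pools of a time point came from the same animals in each cell type. With the replicate number as a block the calls against Day 0 numbered 30 for HC, 10 for FB, 21 for EC and 24 for CM, and of 414 single values 399 kept their side of the threshold. The replicate block gave 3 and the pool as a block 2 differences for EC at Day 1 (1). With the pool as a block, Gsdmd in EC at Day 3 was at −0.85 (adjusted p = 0.051) and Tlr2 in EC at Day 1 at −0.57 (adjusted p = 0.036).

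Single values that changed sign with limma on log2(TPM + 0.1) and log2(TPM + 1) are given in that order beside the edgeR value. In FB at Day 3 against Day 0 these were Gsdmd (−0.93 and −0.76, against 0.88), Nfkbia (−1.08 and −1.07, against 0.44) and Cd14 (−1.12 and −0.35, against 0.97), and at Day 14 against Day 0 Tlr2 (−0.13 and −0.088, against 0.54). In FB at Day 3 against Day 1 they were Gsdmd (−0.81 and −0.66, against 0.88) and Cd14 (−0.96 with the smaller pseudocount). In FB at Day 7 against Day 3 they were Cd14 (1.17 and 0.38), Gsdmd (0.60 and 0.48, against −0.82), Myd88 (0.68 and 0.60, against −0.44) and Pycard (1.36 and 0.61). In EC at Day 7 against Day 3 they were Casp4 (0.70 and 0.59), Myd88 (0.58 and 0.44), Nfkbia (0.93 and 0.91), Tlr4 (0.84 and 0.60) and Casp1 (0.59 with the smaller pseudocount), none called by edgeR. In EC they were also Nfkbia at Day 14 (1.07 and 1.03) and Day 28 (1.12 and 1.08) and Casp1 at Day 28 (0.79 and 0.44) against Day 0. In HC it was Myd88 at Day 7 against Day 1 (0.17 and 0.16, against −0.67).

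With limma on log2(TPM + 1), signs turned between cell types for Pycard in CM (−0.91, against 0.35) and for Casp4 (−0.0089, against 0.24), Gsdmd (−0.032, against 0.30) and Nfkbia (0.050, against −0.33) in EC. For the change at Day 3 they turned for Cd14 (0.49, against −1.46), Gsdmd (0.80) and Nlrp3 (1.48) in HC, Gsdmd in EC (0.25, against −0.87), Nlrp3 in CM (−0.48) and Pycard in FB (−0.60). Nfkbia in EC was at 0.14 with Day 0 libraries only. Without the libraries that stood apart, the sign turned for Gsdmd in FB at Day 7 against Day 3 (0.059, against −0.82), Pycard in EC at Day 3 against Day 0 (0.16, against −1.72) and Pycard in FB at Day 28 against Day 14 (−0.73, against 1.03). The cause of these changes was not tested.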
